A study of Mus spretus with 12 samples.

Results

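The alpha-macroglobulin family was followed with every array probe that the scanner files name A2m, Pzp, Mug1 or Mug2. The 4 gene names, of 37074 on the array, have 6 of its 56605 probes. A probe entered the tests if 1 group had it well above background on each of its 4 arrays; 4 of the 6 did, and neither Mug2 probe. A2m was chosen because it was high with DDE and low with must, so its values are given as a description with no test. The other 3 genes entered by name, as members of the same family, with earlier results of these data known. Pzp and Mug1 were tested, and the Mug1 probe passed the filter through the DDE group alone, where it is high.

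Total RNA was from liver of male Mus spretus of the inbred SPRET/EiJ strain, which were 20 months old when feeding began and 22 months old at sampling, 60 days later. Each of 3 groups has 4 one-colour arrays. The control group ate Teklad diet with corn oil. The DDE group ate Teklad diet to which p,p'-DDE, a long-lived metabolite of DDT, had been added in corn oil at 450 mg/kg. The third group, labelled DDE_PXM here, ate that DDE diet and drank water with must of Pedro Ximenez grapes, with polyphenols at 85 mg/L in total and sugar (glucose and fructose in equal parts) at 31 g/L. No group received must without DDE, and water with the same sugar but no must was not analysed here. The labels do not say whether each array is a separate mouse or whether RNA was pooled, so the p-values reflect the spread from array to array alone, and that may be technical.

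Alpha-macroglobulins are large plasma glycoproteins, made mainly by the liver, that trap proteases. A protease that cuts the bait region sets off a change of shape that closes the molecule around it, a thioester in most members then binds it covalently, and the complex is cleared through the receptor LRP1. The molecules also carry cytokines and growth factors. A2m is known as an acute-phase protein in the rat, Pzp (pregnancy zone protein) is the abundant plasma form in the mouse, and Mug1 and Mug2 encode murinoglobulins, which are single-chain inhibitors of the same family.

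The probe sequences are shown because they set which transcripts could be read, and because the family is one of related genes. Each has 60 bases and is printed 5′ to 3′ as the scanner files give it, with mm9 coordinates from the same files.
A2m, A_52_P455370, chr6:121624853-121624912, plus strand: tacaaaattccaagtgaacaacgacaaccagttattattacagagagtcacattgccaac
Pzp, A_51_P490323, chr6:128436200-128436965, minus strand: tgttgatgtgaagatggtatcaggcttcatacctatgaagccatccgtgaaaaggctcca
Mug1, A_51_P182631, chr6:121838954-121839013, plus strand: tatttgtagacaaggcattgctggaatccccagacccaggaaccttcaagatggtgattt
Mug2, A_51_P291247, chr6:122029623-122029682, plus strand: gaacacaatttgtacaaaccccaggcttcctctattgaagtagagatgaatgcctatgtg
Mug2, A_66_P130124, chr6:122028698-122028757, plus strand: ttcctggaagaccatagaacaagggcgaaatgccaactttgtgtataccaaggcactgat
The other Pzp probe, A_66_P114065, lies at chr6:128433670-128433729 on the minus strand. The mapped span of probe A_51_P490323 is 766 bases for its 60 letters. The longest run of letters that probes of different genes share is 5 to 8 bases, with 6 between A2m and Mug1 and 7 between Mug1 and either Mug2 probe. GC content runs from 36.7% in the A2m probe to 45% in the Mug1 probe and both Pzp probes. Exon and UTR annotation was not used here. The array's design is for laboratory mice, and how well each probe matches Mus spretus was not tested. On the map, the A2m probe lies 214 kb from that of Mug1, the Mug1 probe 190 kb from that of Mug2, and Pzp 6809 kb from A2m.

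Values are log2 of the processed spot signal relative to the 75th percentile of the same array, which was 492 to 710 signal units. Over the 12 arrays 50.1% to 52.0% of spots were well above background, and the median SD within a group over the tested genes was 0.11 log2. Changes were widespread: of 18678 genes tested with limma, 50.3% were called at an adjusted p under 0.05 in DDE against control, 49.9% in DDE_PXM against DDE and 70.9% in DDE_PXM against control. Groups with no overlap in values were found for 46.4%, 44.7% and 65.2% of these genes. Of the called genes, 47.7%, 40.6% and 44.5% were higher in the 3 comparisons. With arrays centred on their median these shares were 81.3%, 66.3% and 73.1%, and in DDE_PXM against DDE the share was 52.2% after quantile normalisation and 52.6% in the deposited values. Median centring itself moved the median change of all genes to 0.21, 0.10 and 0.32 log2, from -0.02, -0.04 and -0.06. Small changes in log2 units therefore depend on the scaling. Hepatocyte markers such as albumin were bright on every array, with a mean over 10 genes of 7.61 to 7.95 log2. Their group means were 7.91 in control, 7.78 in DDE and 7.74 in DDE_PXM. Markers of other tissues differed between the groups: the mean over 9 exocrine pancreas genes was 4.72 to 4.78 in control, 4.39 to 4.49 in DDE and 6.88 to 6.92 in DDE_PXM, and that over 8 adrenal cortex genes was 0.86 to 0.97, -2.96 to -2.83 and 1.56 to 1.66. The mean over 8 skeletal muscle genes was 5.07 to 5.14 in control, 3.65 to 3.86 in DDE and 3.22 to 3.35 in DDE_PXM. For 7 stratified epithelium genes it was -1.68 to -1.53, -3.51 to -3.27 and -3.47 to -3.32. In whole tissue, fewer cells of a type and less RNA per cell cannot be told apart.

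A2m was low in control liver, bright with DDE and not above background with DDE plus must. On the 4 control arrays it stood at -3.53, -3.71, -2.93 and -3.13 log2, on the DDE arrays at -0.15, 0.01, 0.03 and 0.05, and on the DDE_PXM arrays at -5.14, -6.76, -6.75 and -6.56. The groups did not overlap, as was so for 46.4%, 44.7% and 65.2% of all genes in the 3 comparisons. The SD was 0.09 over the DDE arrays and 0.78 over the DDE_PXM arrays. In signal units the probe gave 41.0 to 74.7 in control and 498 to 676 with DDE, each well above background on all 4 arrays. With must it gave 6.43 to 20.1 and was well above background on none, so those values lie at the array's background and have no order.

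Group means of A2m were -3.33 ± 0.36 in control and -0.01 ± 0.09 with DDE (SD, n = 4), a difference of 3.31 log2 or 9.94-fold. Against the lowest level that counts as well above background, the DDE_PXM group was at least 29.8-fold below the DDE group and at least 3.00-fold below the control group. The measured differences were -6.29 and -2.98 log2. A2m was chosen on these differences, so nothing is inferred from them. The arrays lie on 5 slides, and on each of the 3 slides that hold both groups the DDE array exceeded the control array, by 2.95 to 3.75. Within slides DDE_PXM minus DDE was -6.78, -5.16 and -6.41, and DDE_PXM minus control was -3.03, -2.21 and -3.63. With slide as a block the 3 differences were 3.33, -6.27 and -2.94.

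**Figure D1:**
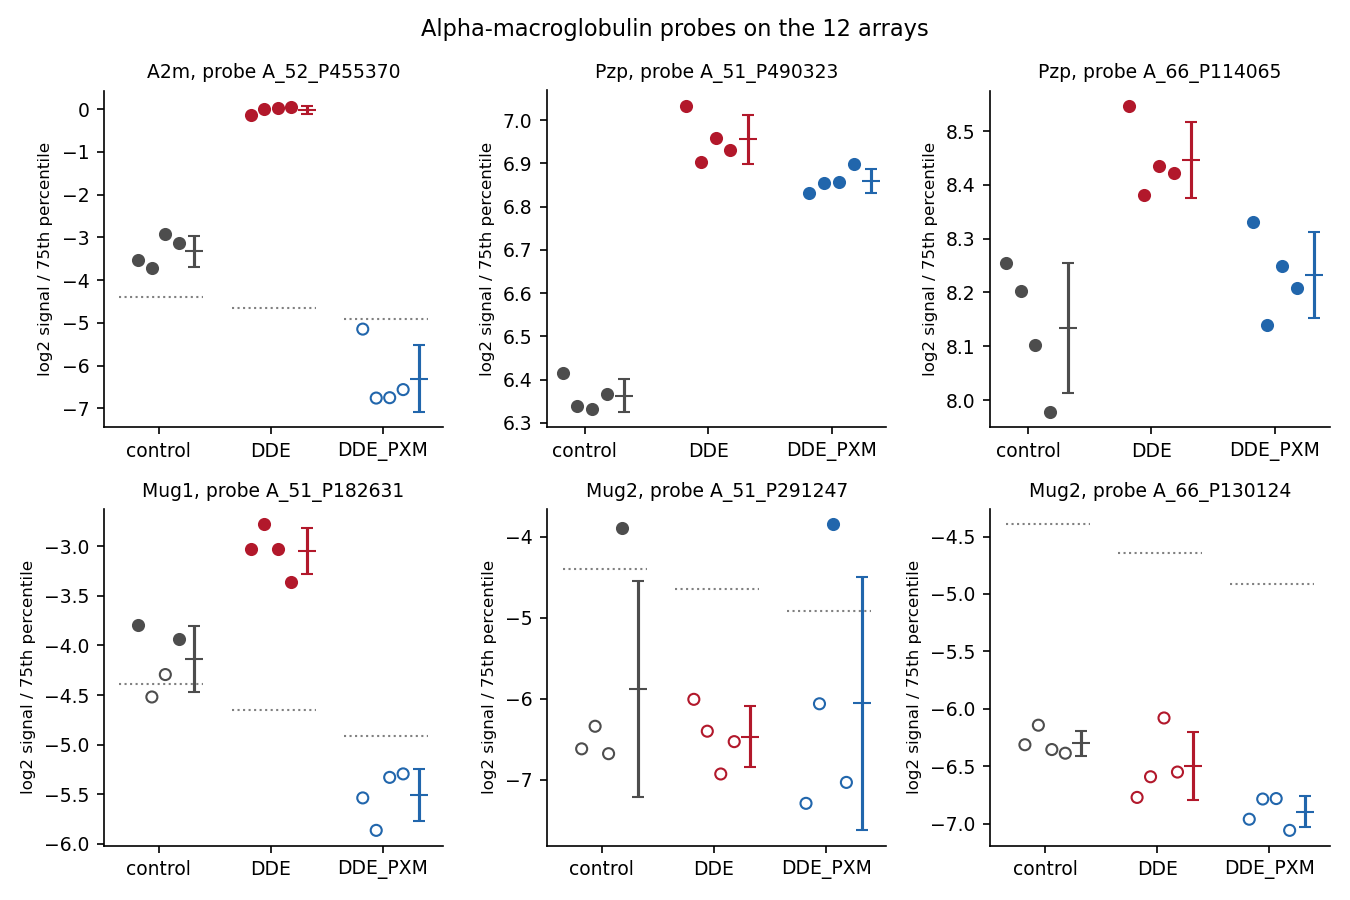
Each panel shows 1 probe of A2m, Pzp, Mug1 or Mug2, with the log2 signal over the array's 75th percentile on the vertical axis and the arrays by group on the horizontal axis. Filled points are well above background and open points are not, bars are the mean with SD (n = 4), and dotted lines are the group's mean floor (drawn for the probes that reach it); A2m is highest on the 4 DDE arrays, at -0.15 to 0.05, and open on all DDE_PXM arrays.

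Mug1, the murinoglobulin gene nearest to A2m on the map, gave measured group means in the same order, with smaller differences. Its control arrays gave -3.79, -4.52, -4.29 and -3.93 log2, its DDE arrays -3.03, -2.78, -3.03 and -3.36, and its DDE_PXM arrays -5.54, -5.86, -5.33 and -5.29. The 3 groups did not overlap, although the lowest DDE array and the highest control array were close. Of all genes, 46.4% had no overlap in DDE against control, 44.7% in DDE_PXM against DDE and 65.2% in DDE_PXM against control. The probe is dim: its signal was 23.5 to 35.6 in control, where 2 of 4 arrays were well above background, 58.9 to 91.5 with DDE, where all 4 were, and 12.1 to 17.95 with must, where none was.

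The Mug1 probe passed the filter through the DDE group alone, the group where it is high, so the filter itself favours these differences. Mug1 rose 2.12-fold with DDE, by 1.09 ± 0.18 log2 (SE, 4 arrays against 4; limma adjusted p = 0.000456). Against the lowest level that counts as well above background, it was at least 3.64-fold lower with must than with DDE alone. The measured difference was -2.46 ± 0.18 (limma adjusted p = 9.08e-07). Against control the measured difference with must was -1.37 ± 0.18 (limma adjusted p = 3.13e-05). Only 2 of the 4 control arrays and no DDE_PXM array were well above background, so no least fold is given for it. Mug2 probe A_66_P130124, well above background on no array, gave -0.60 log2 in the same comparison. Values at background thus differed in the same direction, and no fall of Mug1 below control is inferred. With no filter on dim probes the limma adjusted p-values were 0.00176, 6.47e-06 and 0.000137. Within slides, DDE minus control was 0.43, 1.49 and 1.51, DDE_PXM minus DDE was -2.30, -2.76 and -2.27, and DDE_PXM minus control was -0.81, -1.24 and -1.93. With slide as a block the 3 values were 1.03, -2.43 and -1.40, all still called. Every leave-one-out fit kept these 3 calls, but with the probe kept by the same filter, so those fits carry the same limit. Correcting the background with normexp and its added offset shrank them to 0.41, -0.96 and -0.55, still called.

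Both Pzp probes were far above background, none was marked saturated, and both rose with DDE by small amounts. The brighter, A_66_P114065, which represents Pzp in the fit over genes, stood at 8.25, 8.20, 8.10 and 7.98 in control, 8.55, 8.38, 8.44 and 8.42 with DDE, and 8.33, 8.14, 8.25 and 8.21 with DDE plus must. All DDE arrays lay above all arrays of control and of DDE_PXM, while those latter groups overlapped. Of all genes, 46.4% had no overlap in DDE against control and 44.7% in DDE_PXM against DDE. The increase with DDE was 1.24-fold, or 0.31 ± 0.07 log2 (SE, 4 arrays against 4; limma adjusted p = 0.00239). The slides that hold both groups gave 0.17, 0.23 and 0.28, and the value with slide as a block was 0.27 (limma adjusted p = 0.0102). Other scalings gave larger values: 0.49 after quantile normalisation, 0.54 after median centring, 0.50 with normexp and quantile normalisation and 0.48 in the deposited values, all called.

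Probe A_51_P490323 of Pzp gave 6.42, 6.34, 6.33 and 6.37 in control, 7.03, 6.90, 6.96 and 6.93 with DDE, and 6.83, 6.86, 6.86 and 6.90 with DDE plus must. Its DDE and DDE_PXM arrays all lay above its control arrays, where 46.4% and 65.2% of all genes had no overlap with control. It rose 1.51-fold with DDE, by 0.59 ± 0.04 log2 (limma over probes, 4 arrays against 4, adjusted p = 1.11e-06; 47.5% of probes were called). In DDE_PXM against control it was 1.41-fold higher, by 0.50 (limma adjusted p = 1.19e-06; 68.6% of probes were called).

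The comparison of must with DDE alone depends on the probe and on the scaling for Pzp. Probe A_66_P114065 was lower by 1.16-fold, with -0.21 ± 0.07 log2 (limma adjusted p = 0.0195), and probe A_51_P490323 gave -0.10 ± 0.04 (limma over probes, adjusted p = 0.0901; 45.7% of probes were called). The first call was lost without DDE replicate 1 (-0.18, limma adjusted p = 0.0508), without DDE_PXM replicate 2 (-0.18, limma adjusted p = 0.0600) and with slide as a block (-0.17, limma adjusted p = 0.0616). It was also lost after quantile normalisation (-0.03) and median centring (-0.07), and in the deposited values the difference was 0.06 (limma adjusted p = 0.383). Within slides it was -0.19, -0.05 and -0.34. For the second probe the sign turned, to 0.18 after quantile normalisation (limma adjusted p = 0.00199) and 0.20 in the deposited values (limma adjusted p = 0.00129), so no direction is given for Pzp. Against control, probe A_66_P114065 gave 0.10 (limma adjusted p = 0.207), but was called higher at 0.46 after quantile normalisation, 0.47 after median centring, 0.50 with normexp and quantile normalisation, 0.53 in the deposited values and 0.30 with the Pzp probes averaged (limma adjusted p of 2.10e-06 to 0.000187).

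Mug2 was not measured. Probe A_66_P130124 was well above background on none of 12 arrays and stood at -7.06 to -6.08. Its means were still -6.3 in control, -6.5 in DDE and -6.9 in DDE_PXM, so values at background differed between the groups. Probe A_51_P291247 was well above background on control replicate 4, at -3.89, and on DDE_PXM replicate 3, at -3.84, and on no DDE array. Its other arrays stood at -7.29 to -6.01. No change is given for it.

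For comparison with these calls, 24% of all genes were called higher and 26.3% lower in DDE against control, 20.2% and 29.7% in DDE_PXM against DDE, and 31.6% and 39.3% in DDE_PXM against control. The difference in log2 change between the A2m and Mug1 probes was 2.23 in DDE against control and -3.83 in DDE_PXM against DDE. The Mug1 and brighter Pzp probes differed by 0.77 and -2.24. These gaps between probes are a description, since probes can compress a change to unlike degrees.

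The genes whose pattern over the 12 arrays was most like each member were found by the root mean square difference of log2 values after each gene's mean was taken away, among 18678 genes, passing over predicted genes with no symbol of their own. For A2m they were Ret at 1.13, Erich4 at 1.27, Lypd8 at 1.40, Sult1d1 at 1.42, Adora3 at 1.44 and Rnf138rt1 at 1.45, and Mug1 came 13th at 1.65. A2m's own root mean square was 2.61. Of the 6, Lypd8, a surface protein known from gut epithelium, was well above background on all arrays and differed by 1.48 with DDE against control and by -3.10 with must against DDE. Ret, a receptor tyrosine kinase, differed by 4.05 and then by -4.56, but was well above background on the DDE arrays alone, as were Sult1d1, Adora3 and Rnf138rt1. Erich4 was well above background on the 4 DDE arrays and on 1 control array. These 5 genes therefore passed the filter through the DDE group alone, and their values in DDE_PXM lie at background.

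Mug1 had closer companions, at 0.29 for Wfdc18, a WAP-domain gene, 0.31 for Nnmt, which methylates nicotinamide, and 0.32 for Cebpe, a transcription factor of granulocytes. All 3 were well above background on all 12 arrays. From control to DDE their group means differed by 1.096, 0.65 and 0.85, and from DDE to DDE_PXM by -2.28, -2.32 and -2.07. Beside these, 7 neutrophil markers had a mean of 0.40 to 0.48 in control, 0.32 to 0.39 with DDE and -1.15 to -1.05 with must. All 7 fell with must, where 29.7% of all genes did. With DDE 1 rose and 4 fell, where 24% and 26.3% of all genes did, and Ngp, Cd177 and Mmp8 were below the filter. The part of neutrophils in the Mug1 values was not tested. For the brighter Pzp probe the nearest were Tmem33 at 0.05 and Prdx6 and Hps4 at 0.06.

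**Figure D2:**
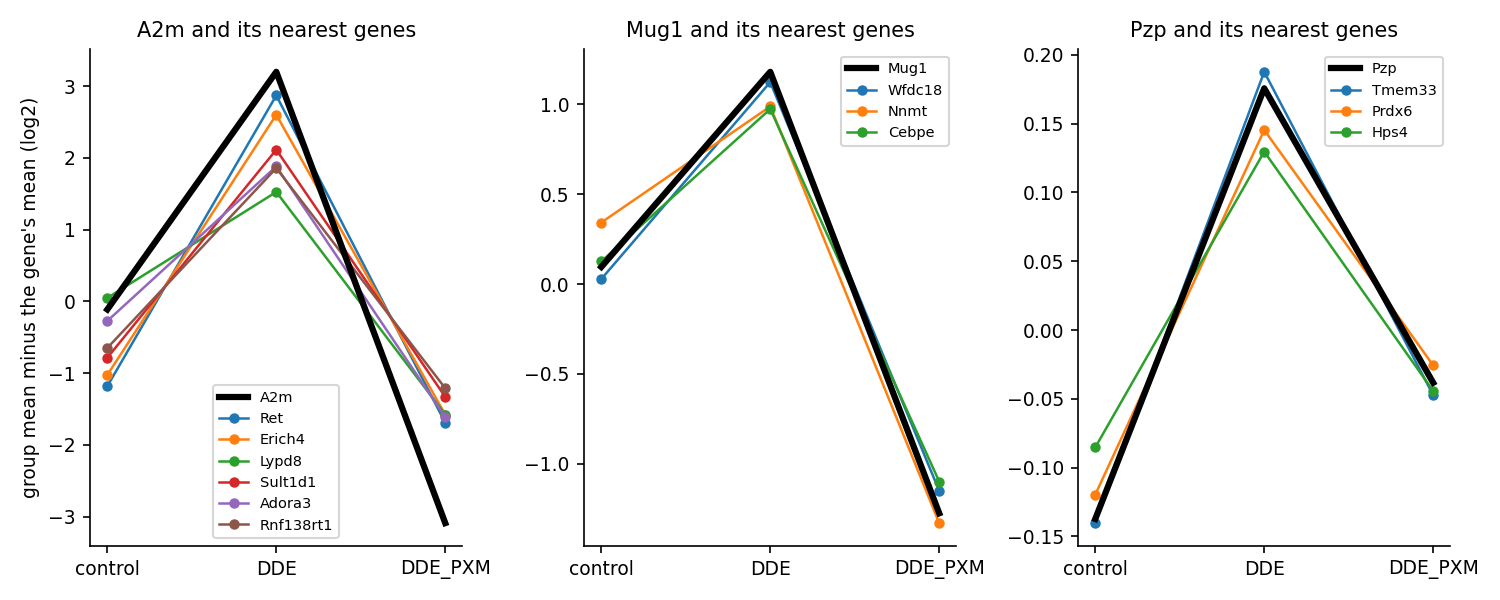
Group means minus the gene's mean over all arrays (log2, vertical axis) for control, DDE and DDE_PXM, with the member in black and its nearest genes in colour. A2m and all of its nearest genes but Lypd8 were at background in DDE_PXM, so their spans have no order; the vertical scales differ between the panels.

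Within 500 kb of the A2m, Mug1 and Mug2 probes on chromosome 6 lie 18 other gene names, of which 12 were tested. With DDE 4 were called higher and 2 lower, with a median change of 0.06 log2 and a range of -1.31 to 0.81. With must against DDE 2 were higher and 5 lower, with a median of 0.01 and a range of -1.85 to 0.38. Over all genes 24% were higher and 26.3% lower with DDE, and 20.2% and 29.7% with must. The number higher ranged up to 8 and 5 under other scalings, and the second was 1 without DDE_PXM replicate 4; the number lower with DDE was 1 under the stricter filter. Tuba8, an alpha-tubulin gene, fell by 1.31 with DDE (limma adjusted p = 6.19e-09). Klrg1 gave 0.81 with DDE (limma adjusted p = 0.0661) and -1.85 with must (limma adjusted p = 0.000861). Its group means were low, at -4.76 in control, -3.95 in DDE and -5.80 in DDE_PXM. The control and DDE_PXM means lie below the mean floors of those groups, -4.39 and -4.91, the dimmest level marked well above background. The Klrg1 probe thus passed the filter through the DDE group alone, where it is high. The filter itself favours its differences, and its p-values carry that limit. Both genes were singled out after their values were seen.

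Around Pzp, 12 of 36 other gene names were tested, with 3 higher and 3 lower with DDE (median 0.07) and 0 higher and 7 lower with must (limma; median -0.38), where 24%, 26.3%, 20.2% and 29.7% of all genes were. At an unadjusted p under 0.05, 1 was higher with must. Quantile normalisation, median centring, normexp with quantile normalisation and the deposited values gave 0 to 1 lower with DDE, and 4 lower and 1 higher with must; without DDE_PXM replicate 4, also 1 was higher. With median centring 5 were higher with DDE. The neighbour BC048546, an ovostatin-like gene of the same superfamily at chr6:128492867-128493273, rose 2.23-fold with DDE, by 1.16 ± 0.07 log2 (SE, 4 arrays against 4; limma adjusted p = 1.32e-07). It fell by 0.81 with must (limma adjusted p = 2.35e-06) and remained 0.35 above control (limma adjusted p = 0.000626).

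**Figure D3:**
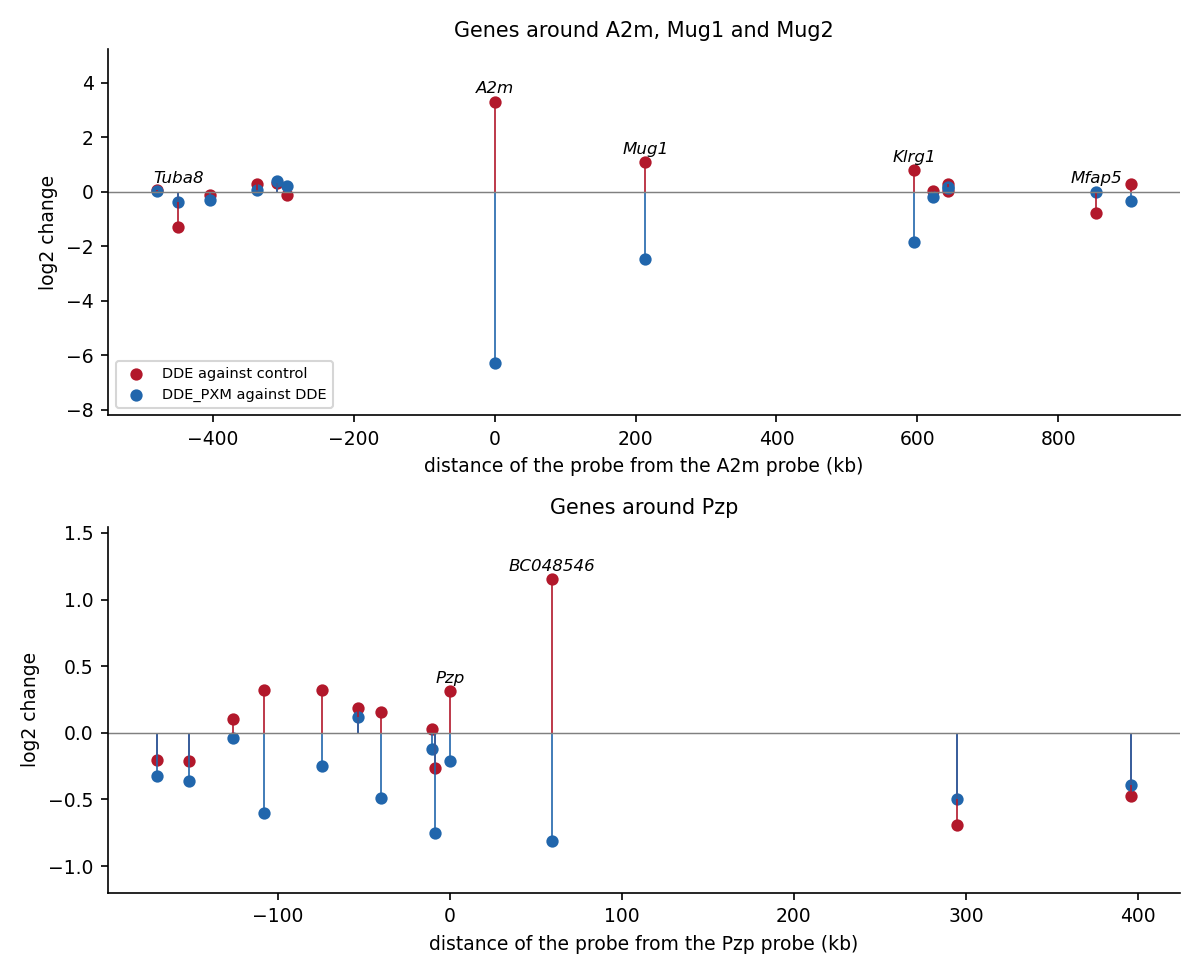
Log2 change (vertical axis) of each tested gene in DDE against control (red) and DDE_PXM against DDE (blue), placed by the distance in kb of its probe from the A2m probe (top) or the Pzp probe (bottom). A2m at 3.31 and -6.29 and Mug1 at 1.09 and -2.46 stand among neighbours that are mostly near 0. Larger changes there include Klrg1 at 0.81 and -1.85 and Tuba8 at -1.31 and -0.36. BC048546 at 1.16 and -0.81 is the largest change in the lower panel.

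In the wider superfamily of alpha-macroglobulin and thioester proteins, 12 further gene names were listed, 6 were found on the array by name and 5 were tested. Hc and C5 on that list both name the gene of complement C5. The list's median with DDE was 0.33 against -0.02 over all genes. With DDE 4 rose and 0 fell (limma, and also 0 at an unadjusted p under 0.05), where 24% of all genes were called higher and 26.3% lower. Besides BC048546 these were the complement genes C4a, by 0.49 (limma adjusted p = 0.000132), Hc, the gene of complement C5, by 0.33 (limma adjusted p = 7.35e-05), and C3 by 0.13 (limma adjusted p = 0.0359). The C3 call was lost without control replicate 2, 3 or 4 (limma adjusted p = 0.0785, 0.0663 and 0.0761), without DDE replicate 1 or 4 (limma adjusted p = 0.0847 and 0.0559) and with slide as a block (limma adjusted p = 0.123). With must against DDE 2 of the 5 fell, BC048546 and C4b, where 29.7% of all genes were called lower and 20.2% higher. The median was -0.10 against -0.04 over all genes. Over the alternatives 0 to 2 rose and 1 to 2 fell. C4b gave -0.18 (limma adjusted p = 0.00687), but 0.15 after quantile normalisation, so its direction depends on the scaling. Cd109, a membrane-anchored member, was below the filter, and A2ml1 was not found under that name.

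LRP1, the main receptor for alpha-macroglobulin complexes, gave 0.00 for Lrp1 with DDE (limma adjusted p = 0.959; called at 0.24 with median centring, limma adjusted p = 0.00561) and was 1.53-fold higher with must than with DDE, by 0.61 (limma adjusted p = 7.51e-06). Over 6 tested genes, 4 rose and 1 fell with DDE (median 0.23), where 24% and 26.3% of all genes did, and 5 rose with must, where 20.2% did (median 0.46). Lrp2, or megalin, rose by 0.32 with DDE and by a further 0.66 with must (limma adjusted p = 0.00667 and 5.39e-05). Vldlr fell by 1.38 with DDE (limma adjusted p = 3.59e-07) and gave 0.30 with must (limma adjusted p = 0.0171), a call lost with normexp (limma adjusted p = 0.0727) and with probes averaged (limma adjusted p = 0.0856). Lrpap1, the chaperone of these receptors, gave 0.17 with DDE (limma adjusted p = 0.0150; 0.0728 in the deposited values and 0.0514 with slide as a block) and 0.03 with must (limma adjusted p = 0.637), called higher at 0.14 to 0.17 under 4 other scalings.

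Interleukin-6 signalling through STAT3 is the textbook inducer of rat A2m. Of 20 listed genes of that pathway 16 were tested, and Il6, Osm, Lif and Il11 were below the filter, so the ligands themselves were not measured. With DDE 2 rose and 4 fell (median -0.02), and with must 5 rose and 5 fell (median 0.06). The numbers that fell are near the shares of all genes, 26.3% with DDE and 29.7% with must; 24% and 20.2% rose. Over the alternatives 1 to 10 rose and 2 to 7 fell with DDE, and 4 to 8 rose and 3 to 5 fell with must. The feedback inhibitors Socs3 and Socs1 fell with DDE (-0.49 and -0.70, limma adjusted p = 1.78e-05 and 0.000495) and rose with must by 0.55 and 1.00 (limma adjusted p = 6.82e-06 and 3.69e-05). Stat3 gave 0.12 and -0.22 (limma adjusted p = 0.387 and 0.130), and its sign with DDE turned to -0.11 when its probes were averaged, while with median centring it was called at 0.35 (limma adjusted p = 0.0207).

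Among the receptors and factors of that pathway, Il6ra gave -0.34 with DDE (limma adjusted p = 0.000209), lost under median centring (limma adjusted p = 0.0932) and 0.31 with its probes averaged. Il6st, the shared receptor chain gp130, gave 0.22 (limma adjusted p = 0.00160; 0.115 in the deposited values and 0.0568 with probes averaged), and the kinase Tyk2 rose by 0.36 (limma adjusted p = 0.00328). With must Cebpd, an acute-phase transcription factor, fell by 1.22 (limma adjusted p = 1.66e-08) and Osmr, the oncostatin M receptor, by 0.60 (limma adjusted p = 0.000665). Cebpb gave 0.19 with DDE (limma adjusted p = 0.125; called under median centring and with slide as a block, 0.00307 and 0.0276) and -0.47 with must (limma adjusted p = 0.00209; 0.0572 in the deposited values).

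All 30 genes of the acute-phase list were tested. The list is broader than the class to which rat A2m belongs. It also holds Alb, Ttr, Trf and Rbp4, and the metallothioneins Mt1 and Mt2, so its counts pool unlike genes. With DDE 15 rose and 4 fell (median 0.15) and with must 2 rose and 22 fell (median -0.47). Over all genes 24% rose and 26.3% fell with DDE, and 20.2% and 29.7% with must. The 4 that fell with DDE were 0 to 6 over the alternatives, and the 2 that rose with must were 2 to 5. Orm3, an orosomucoid, Lcn2, an iron-siderophore binding protein, and Il1rn, the interleukin-1 receptor antagonist, rose with DDE by 1.84, 1.78 and 1.36 (limma adjusted p = 4.59e-10, 1.88e-09 and 1.03e-07). Lcn2 then fell by 2.81 with must (limma adjusted p = 3.40e-11). The serum amyloid genes Saa1 and Saa2 gave -0.05 and -0.06 with DDE (limma adjusted p = 0.432 and 0.586) and fell with must, by -2.75 and -3.04 (limma adjusted p = 2.43e-12 and 2.48e-10), and the hepatokine Fgl1 fell by 2.21 (limma adjusted p = 6.96e-11). The means of Saa1 and Saa2 were 9.79 to 9.85 in control and DDE, close to albumin at 9.83 to 9.97. Whether probes this bright compress a rise was not tested.

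Of 29 other protease inhibitors of plasma tested, 7 rose and 7 fell with DDE (median -0.05), and 4 rose and 14 fell with must (median -0.14). The counts with DDE are near the shares over all genes, 24% higher and 26.3% lower; with must those shares were 20.2% and 29.7%. These splits depend on the scaling: over the alternatives 6 to 16 rose and 0 to 9 fell with DDE, and 2 to 12 rose and 3 to 15 fell with must. The number that rose with must was also 2 without DDE replicate 2, 3 or 4 or without DDE_PXM replicate 2. Serpina3n, an antichymotrypsin-like serpin, rose with DDE by 0.86 (limma adjusted p = 2.01e-06). Serpina1a, an alpha-1-antitrypsin gene with near-identical copies, gave -0.26 (limma adjusted p = 0.000745) and was not called under 4 other scalings (-0.10 to -0.03). With must the metalloprotease inhibitor Timp1 fell by 0.66 and Timp3 rose by 0.39 (limma adjusted p = 1.29e-05 and 0.00449).

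Of 28 listed proteases that the family can trap 22 were tested, with 4 higher and 9 lower with DDE (median -0.11) and 12 higher and 5 lower with must (median 0.27). The shares over all genes were 24% and 26.3% with DDE, and 20.2% and 29.7% with must. Over the alternatives 3 to 9 were higher and 4 to 9 lower with DDE, and 3 to 6 lower with must. Ctrl, a chymotrypsin-like protease, Klk1, tissue kallikrein, and Ctrb1, chymotrypsinogen, rose with must by 3.37, 3.34 and 2.93 (limma adjusted p = 4.47e-12, 9.15e-11 and 6.14e-12). The mean of the exocrine pancreas markers, which include Ctrb1, rose in the same arrays as given above, and all 9 were called higher; their part in these values was not tested. The neutrophil protease genes Prtn3 and Ctsg fell with must (-2.98 and -1.71, limma adjusted p = 5.70e-10 and 1.28e-05), as the neutrophil markers did, and Prtn3 fell with DDE by 1.37 (limma adjusted p = 4.64e-07). Klkb1, plasma prekallikrein of liver, rose with DDE by 0.49 (limma adjusted p = 1.29e-05).

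Of 15 listed cytokines and growth factors that alpha-macroglobulins can carry 13 were tested, with 2 higher and 3 lower with DDE (median -0.05) and 6 higher and 3 lower with must (median 0.24), beside 24% and 26.3%, and 20.2% and 29.7%, of all genes. Over the alternatives 2 to 6 were higher with DDE and 1 to 4 lower with must. Tgfb2 rose in both steps, by 1.13 and 0.77 (limma adjusted p = 7.82e-07 and 1.56e-05). Il1b fell with DDE by 0.72 (limma adjusted p = 0.000793). Of 9 Kupffer cell markers tested, the macrophages of liver, 8 fell with DDE and 7 with must, and their mean was 1.65 to 1.74, 1.31 to 1.37 and 0.99 to 1.06 in control, DDE and DDE_PXM. Their part in Il1b was not tested.

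**Figure D4:**
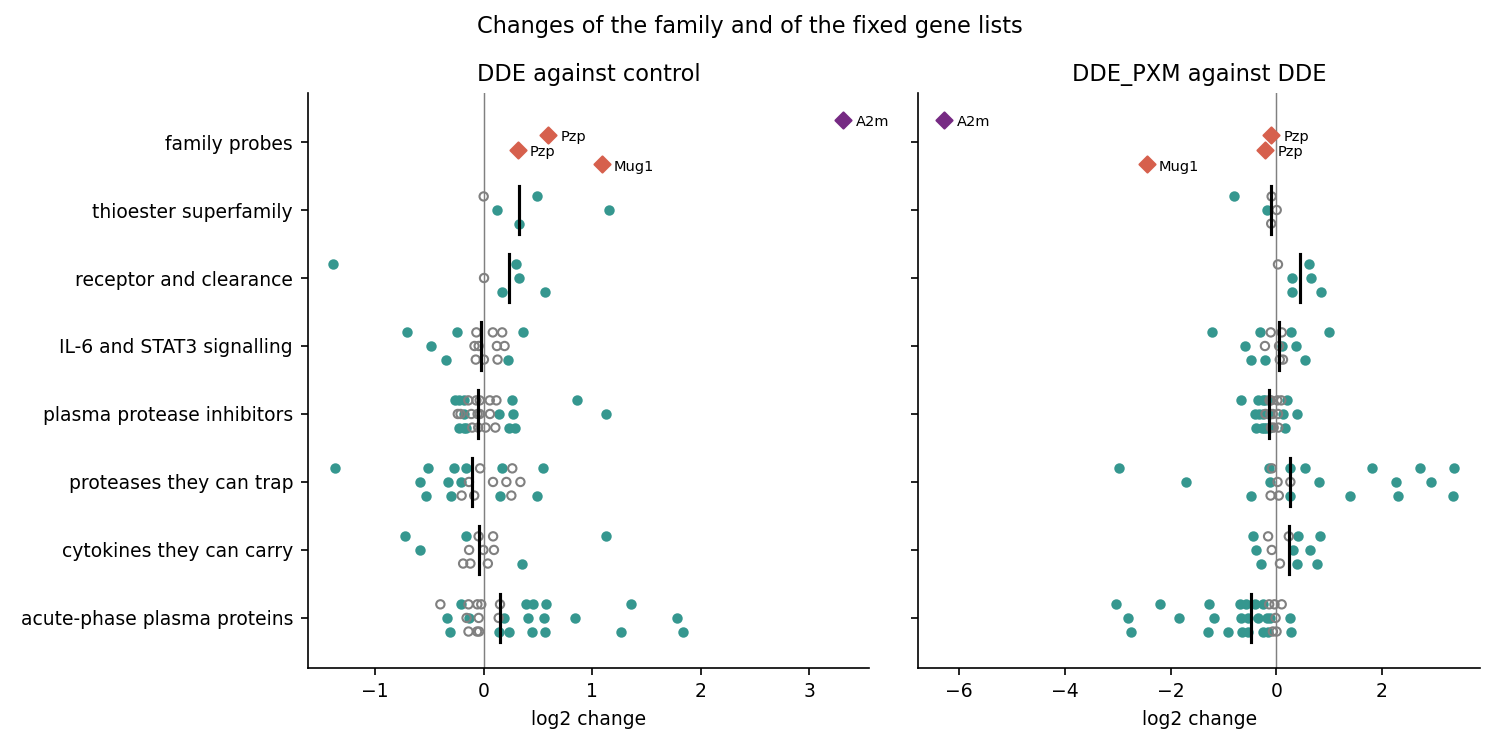
Log2 change (horizontal axis) of each tested gene, by list (vertical axis), in DDE against control on the left and DDE_PXM against DDE on the right. Diamonds are the family's probes (A2m, chosen on these values, in purple), filled circles are called genes, open circles are not, and black bars are list medians; A2m lies at 3.31 and -6.29, outside the range of every list.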

How the data were processed

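Total RNA of liver was measured on 12 one-colour arrays with Cy3, 4 in each of 3 groups taken from the labels. Per the file headers, the deposited spot intensity (processed signal) had been detrended by the scanner software; limma, RMA and Agilent Feature Extraction 11.5.1.1 are named in the submitters' processing notes without role or order. The authors' deposited value table is on a log2 scale (correlation of 0.994 to 0.996 with log2 processed signal across probes); how it was made is not stated in these sources, and it served as an alternative. The medians of its columns, 5.32 to 5.35, were alike.

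From each log2 signal the array's 75th percentile over 59305 spots was subtracted, leaving out 3671 control spots and 102 to 177 outlier spots. The filter kept 27098 of 56605 probes, those that 1 group or more had well above background on each array; the brightest kept probe represented each of 18678 genes. limma 3.58.1 (R 4.3.3) fitted the group over 12 arrays (9 residual degrees of freedom) with Benjamini-Hochberg adjustment, called at an adjusted p under 0.05; other probes were fitted over probes. "At least" folds use, per array, whichever is higher of the probe's signal and a floor, the dimmest probe marked well above background. They hold for this scaling and background alone, and the floor is lenient. A probe above it can still be marked not well above background, as Mug1 was on control replicate 3 (-4.29 against a floor of -4.38). Genes named are all members, up to 3 called genes of each list with the largest change in each direction, a few fixed genes, and nearest genes. Which of the genes so allowed are printed was decided with their values seen, and some are not reported here. Members and lists were chosen with earlier results of these data known. The fit was tested on simulated data. Alternatives covered scaling, background, filters, probes, blocks and leaving out arrays. Array number limits the precision.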

Additional observations from a re-analysis of the deposited data

Results flagged for a closer look

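Of 18 sets of 4 arrays (6 probes in 3 groups), 2 held an array far from the other 3 by Dixon's criterion on the gap relative to the range; chance alone marks about 1 in 20 sets. For A2m, DDE_PXM replicate 1 stood at -5.14 while the other arrays of its group stood at -6.76 to -6.56, a gap of 0.877 of the range, and none of the 4 was well above background. For Mug2 probe A_51_P291247, control replicate 4 stood at -3.89, well above background, while the other control arrays stood at -6.68 to -6.34, a gap of 0.878 of the range.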

How the results depend on the processing

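Of 288 values of the members over 25 alternatives, 5 changed sign, 6 lost a call, 5 gained one, and 6, all of A2m, which has no test, kept their direction but moved by more than the spread between arrays. The A2m differences for DDE against control, must against DDE and must against control were 2.18, -3.18 and -0.999 with normexp and 2.345, -2.99 and -0.64 with normexp and quantile normalisation (RMA-like), both of which add an offset of 50 to dim signals by construction. Leaving out 1 array at a time gave 3.18 to 3.44, -6.68 to -6.14 and -3.36 to -2.83. For Pzp in DDE_PXM against DDE the values were -0.0301 with quantile normalisation, -0.0708 with median centring, -0.00121 RMA-like, -0.165 with slide as a block and 0.0557 in the deposited values, and -0.25 to -0.18 leaving out 1 array; against control they were 0.46, 0.47, 0.50 RMA-like, 0.53 deposited and 0.30 with probes averaged. Its second probe in DDE_PXM against DDE gave 0.178 (quantile), 0.0477 (median), 0.184 (RMA-like) and 0.204 (deposited). Mug1 kept all 3 calls, at 0.41 to 1.51, -2.50 to -0.75 and -1.40 to -0.20 outside the leave-one-out fits. Its probe passed the filter through the DDE group alone, and none of its DDE_PXM arrays was well above background, so these calls carry that limit. No fall of Mug1 with must against control is inferred. Reversed among list genes were Lrp1 with DDE (-0.0585 quantile, -0.0555 RMA-like, -0.0488 deposited, and -0.0224 to 0.0378 leaving out 1 array), C4b with must (0.15 quantile, 0.15 RMA-like, 0.18 deposited), and, with probes averaged, Il6ra at 0.31 and Stat3 at -0.11 with DDE. Counts over lists and neighbours moved by over 1.5 times in 83 of 864 cases, and the ranges stand beside the lists and neighbours. The cause of these shifts was not tested. With no filter on dim probes 14100 genes were called in DDE_PXM against DDE and 21800 in DDE_PXM against control, where more genes are tested. The stricter filter left out A2m and Mug1, and gave no value. Array numbers did not pair the arrays (r of -0.368 to 0.132 between same-numbered arrays, 1 of 12 pairs above 0.1); with a replicate block A2m gave 3.31 and -6.29, Mug1 1.09 (limma adjusted p = 0.00243) and Pzp 0.31 and -0.21 (limma adjusted p = 0.00239 and 0.0138), and no member's call changed. Signals near background limit A2m with must, Mug1 and Mug2.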
